A study of Rattus norvegicus with 8 samples.

Results

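Glycogen is the form in which the liver stores glucose, and the enzymes that build it and take it apart were followed here in rats given a glucocorticoid, a liver X receptor (LXR) agonist, or both. The set held 9 genes, chosen by name for their roles in hepatic glycogen synthesis and breakdown: Gyg1, Pgm1, Ugp2, Gys2, Gbe1, Ppp1r3b, Ppp1r3c, Pygl and Phka2. Each gene was traced through the probe sets to which the array's platform annotation gives its symbol and no other. That yielded 10 probe sets for 8 genes, among 31042 probe sets and 14217 genes named in this way on the whole array. Ppp1r3b and Pgm1 had 2 probe sets each and the other 6 genes had 1, and the signal of Ppp1r3c was not analysed here because the platform annotation used pairs no probe set with that symbol. All 10 probe sets passed the filter on low signals.

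The rats were male Sprague-Dawley animals without a genetic modification named in the sources used here, and their age was not given there. Every rat in the 4 groups had 3 days of gavage and, on the final day, an intramuscular injection that preceded removal of the liver by 24 hours. The vehicle group received both carriers and no drug, and the Dex group received the gavage carrier and dexamethasone, a synthetic agonist of the glucocorticoid receptor (GR), at 1.5 mg/kg. The GW3965 group was gavaged with GW3965, a synthetic LXR agonist, at 50 mg/kg and injected with saline. The Dex+GW3965 group received both drugs at these doses. Whole-liver RNA was hybridized to 8 Affymetrix rat arrays, 2 per group and lettered a and b. The labels place both arrays of a group under a single liver number whereas the study's methods describe 2 animals, so that p-values measure only the spread between these arrays, which may be technical. This number of arrays limits the precision of every value below.

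Glucose enters glycogen in a fixed order. Phosphoglucomutase turns glucose 6-phosphate into glucose 1-phosphate, UDP-glucose pyrophosphorylase activates it to UDP-glucose, glycogenin primes a new particle, glycogen synthase lengthens the chains and the branching enzyme adds branch points. Phosphorylase releases glucose 1-phosphate again, and both key enzymes are switched by phosphorylation, phosphorylase kinase acting on the one side and protein phosphatase 1, brought to the particle by glycogen-targeting subunits, on the other. Glucocorticoids are named for their effect on glucose and have long been known to promote glycogen deposition in liver, while LXRs are oxysterol-sensing receptors best known for cholesterol and lipid metabolism.

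Signals are given as deposited, on a log2 scale, so that a difference of 1 is a doubling. They compare arrays for the same probe set and not different probe sets with each other. A change was called when the Benjamini-Hochberg adjusted p of limma, over 16253 probe sets, was below 0.05. The mean of the 8 array medians, 5.49, served as the background level. Of the hepatocyte markers 7 were on the array and all 7 were above background. Their summed signals lay between 16.95 and 17.08 on the 8 arrays. Of these 7, 4 were called lower and 1 higher with dexamethasone, where 24.7% and 17.2% of all tested probe sets were. With both drugs against vehicle 4 were lower and 1 higher (21.2% and 15.6% of all), and with GW3965 1 was lower (14.5% of all). Ckm, Acta1, Tnnt3 and Myl1 of the 5 skeletal muscle markers were not above background in any group. Myh1, the other muscle marker, was above background. It was called higher with dexamethasone and with both drugs against vehicle and against GW3965. In RNA from whole liver, fewer cells of a type and less RNA per cell cannot be told apart.

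Dexamethasone raised the signals of the synthase and the phosphorylase and lowered those of glycogenin and the UDP-glucose pyrophosphorylase. Neither probe set of Pgm1, the phosphoglucomutase, passed the test. Gys2, the liver isoform of glycogen synthase, rose 1.52-fold and Pygl, the liver glycogen phosphorylase, 1.19-fold, while Ugp2, the UDP-glucose pyrophosphorylase, fell 1.74-fold and Gyg1, glycogenin, fell 1.7-fold. Gbe1, the branching enzyme, and 1 of the 2 probe sets of Ppp1r3b, the hepatic targeting subunit of protein phosphatase 1, fell by less. In all, 6 of the 10 probe sets passed the test, 2 higher and 4 lower, where 41.9% of all tested probe sets did, 17.2% higher and 24.7% lower. The median log2 change was -0.08 over the 10 probe sets and -0.01 over all probe sets, and the median size of the change without regard to sign was 0.25 and 0.17.

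**Figure D1:**
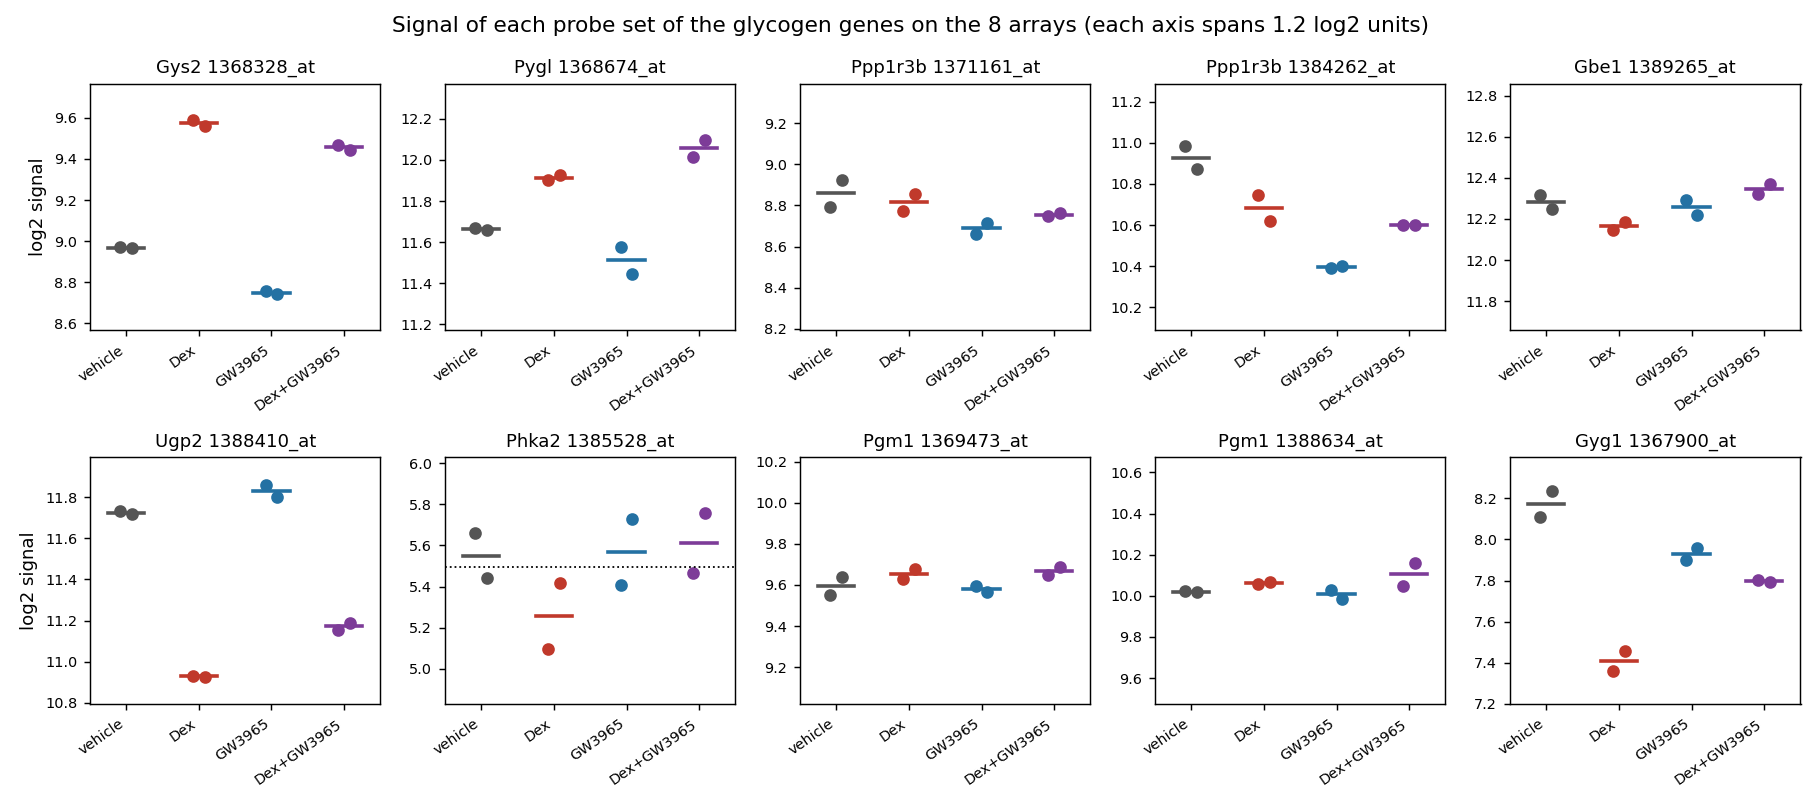
Log2 signal (vertical axis) of each of the 10 probe sets on the 8 arrays, by treatment group (horizontal axis). Points are single arrays, short bars are the means of 2 arrays, every vertical axis has the same span, and the dotted line for Phka2 is the background level of 5.49. Gys2 and Pygl are high in both groups given dexamethasone, Ugp2 is low in both, and Gyg1 is lowest with dexamethasone alone.

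The promoters of Gys2, Ugp2 and Gyg1 are shown because these genes had the largest changes with dexamethasone, in opposite directions. The windows are the 250 bases before the annotated start in RefSeq for the GRCr8 assembly, 5′ to 3′ on the strand of the gene, at chr4:177137237-177137486 for Gys2, chr14:99698003-99698252 for Ugp2 and chr2:104582778-104583027 for Gyg1, each on the minus strand. Capitals mark the nuclear receptor half-site AGGTCA in Gys2 and the E-box CACGTG in Gyg1, and the Ugp2 window held none of the motifs searched.
Gys2: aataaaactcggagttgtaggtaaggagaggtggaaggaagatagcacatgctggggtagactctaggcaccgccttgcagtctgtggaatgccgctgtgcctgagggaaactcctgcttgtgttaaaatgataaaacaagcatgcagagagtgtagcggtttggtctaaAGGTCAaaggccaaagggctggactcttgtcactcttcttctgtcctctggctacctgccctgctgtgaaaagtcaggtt
Ugp2: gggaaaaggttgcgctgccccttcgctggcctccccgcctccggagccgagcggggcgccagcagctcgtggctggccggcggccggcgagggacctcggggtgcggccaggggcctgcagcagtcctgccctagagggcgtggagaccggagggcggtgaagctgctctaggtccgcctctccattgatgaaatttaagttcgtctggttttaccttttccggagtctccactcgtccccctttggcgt
Gyg1: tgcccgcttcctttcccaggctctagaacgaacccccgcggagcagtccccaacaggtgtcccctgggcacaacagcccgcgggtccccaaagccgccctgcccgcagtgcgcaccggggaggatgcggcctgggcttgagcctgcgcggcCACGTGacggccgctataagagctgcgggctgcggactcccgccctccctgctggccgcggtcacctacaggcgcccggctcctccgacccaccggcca

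Windows of this length were searched on both strands for 6 motifs in 8 of the 9 genes, the table used having no entry for Ppp1r3b. The half-site AGGTCA, which began at position -80 from the start of Gys2, was found in no other member and in 14.1% of all 33469 promoters. The E-box, at position -99 from the start of Gyg1, was also in the window of Ppp1r3c and occurred in 5.59% of promoters. The glucocorticoid receptor half-site AGAACA was found only in the window of Phka2 and in 17.5% of promoters. The full glucocorticoid response element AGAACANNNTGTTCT, which contains the receptor half-site, the LXR element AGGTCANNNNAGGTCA, which contains AGGTCA, and the cAMP response element TGACGTCA were in none of the 8 windows and in 0.012%, 0.00299% and 1.59% of promoters. A match or its absence describes these letters in these windows and not the binding of a factor.

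Gyg1, whose protein starts each glycogen particle by attaching glucose to itself, had signals of 8.11 and 8.24 in the vehicle arrays, 7.36 and 7.46 with dexamethasone, 7.90 and 7.96 with GW3965 and 7.80 and 7.79 with both drugs. The groups did not overlap, and the order ran from Dex through Dex+GW3965 and GW3965 up to vehicle. Gyg1 fell by 0.76 on the log2 scale with dexamethasone (SE 0.07, adjusted p = 7.06e-08), and it fell by 0.38 with both drugs (SE 0.07, adjusted p = 0.000322). Adding GW3965 to dexamethasone raised Gyg1 by 0.39 (SE 0.07, adjusted p = 0.000524). The neighbours Dex+GW3965 and GW3965 differed by -0.13 (95% interval -0.28 to 0.01, adjusted p = 0.155), which did not pass the test. With GW3965 alone Gyg1 fell by 0.24 (SE 0.07, adjusted p = 0.0202), a call that was lost without vehicle array b (-0.18, adjusted p = 0.158), without GW3965 array a (-0.21, adjusted p = 0.138), without GW3965 array b (-0.27, adjusted p = 0.0676) and after quantile normalization (-0.19, adjusted p = 0.071).

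Pgm1, the phosphoglucomutase that links glucose 6-phosphate and glucose 1-phosphate, passed the test in none of the comparisons with either probe set. The signals of 1369473_at were 9.55 and 9.64 with vehicle, 9.63 and 9.68 with dexamethasone, 9.60 and 9.56 with GW3965 and 9.65 and 9.69 with both. Those of 1388634_at were 10.03 and 10.02, 10.06 and 10.07, 10.03 and 9.99, and 10.05 and 10.16 in the same order. Arrays of different groups lay close together and often overlapped, and with Dex+GW3965 array a left out the difference of both drugs from GW3965 passed the test for 1388634_at (0.15, adjusted p = 0.0389). Between Dex and vehicle, the 95% interval of the difference ran from -0.04 to 0.16 for 1369473_at and from -0.05 to 0.14 for 1388634_at.

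Ugp2, which makes the UDP-glucose that the synthase consumes, showed the largest change of the 10 probe sets with dexamethasone. Its signals were 11.73 and 11.72 with vehicle, 10.93 on both arrays with dexamethasone, 11.86 and 11.80 with GW3965, and 11.15 and 11.19 with both. The 4 arrays from rats given dexamethasone all lay below the 4 others. The change was -0.80 with dexamethasone (SE 0.04, adjusted p = 5.6e-12), -0.55 with both drugs against vehicle (SE 0.04, adjusted p = 1.2e-09) and -0.66 with both drugs against GW3965 (SE 0.04, adjusted p = 1.09e-10). Ugp2 was 0.24 higher with both drugs than with dexamethasone alone (SE 0.04, adjusted p = 8.96e-05). GW3965 alone gave 0.11 (95% interval 0.03 to 0.18, adjusted p = 0.0504), just outside the threshold, and this difference passed the test after quantile normalization (0.15, adjusted p = 0.00809).

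Gys2, which forms the linear chains of liver glycogen, had signals of 8.97 and 8.96 with vehicle, 9.59 and 9.56 with dexamethasone, 8.76 and 8.74 with GW3965, and 9.47 and 9.45 with both drugs. The SD within a group was at most 0.02 and no groups overlapped. Dexamethasone raised Gys2 by 0.61 (SE 0.05, adjusted p = 9.8e-09), and it did so by 0.71 in the presence of GW3965 (SE 0.05, adjusted p = 1.65e-09). With GW3965 alone Gys2 fell by 0.22, or 1.16-fold (SE 0.05, adjusted p = 0.00333). With both drugs Gys2 stayed 0.49 above vehicle (SE 0.05, adjusted p = 2.15e-07). The highest groups, Dex and Dex+GW3965, differed by -0.12 (95% interval -0.22 to -0.02, adjusted p = 0.0901), which did not pass the test as deposited but did after quantile normalization (-0.14, adjusted p = 0.0414).

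Gbe1, the branching enzyme, had its highest arrays with both drugs. Its signals were 12.32 and 12.25 with vehicle, 12.15 and 12.18 with dexamethasone, 12.29 and 12.22 with GW3965, and 12.32 and 12.37 with both. The Dex arrays were the lowest and the Dex+GW3965 arrays the highest, and the GW3965 arrays overlapped those of vehicle. A fit without an intensity trend did not call Gbe1 for both drugs against dexamethasone (adjusted p = 0.079). Nor did it for dexamethasone against vehicle (adjusted p = 0.158). In the main fit Gbe1 was 0.18 higher with both drugs than with dexamethasone alone (SE 0.04, adjusted p = 0.00189). It was 0.09 above GW3965 alone (adjusted p = 0.0793), which passed the test only without vehicle array a (adjusted p = 0.0439) or b (adjusted p = 0.0442). Against vehicle the combination gave 0.06 (adjusted p = 0.225), which passed the test after quantile normalization (0.10, adjusted p = 0.0371). The change with dexamethasone, -0.12 (SE 0.04, adjusted p = 0.0174), was lost without vehicle array a (-0.08, adjusted p = 0.121), without Dex array a (-0.10, adjusted p = 0.133) and after quantile normalization (-0.07, adjusted p = 0.109).

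Ppp1r3b, which holds protein phosphatase 1 on hepatic glycogen and so favours the active form of the synthase, was read by 2 probe sets that disagreed in size. With 1384262_at the signals were 10.98 and 10.87 with vehicle, 10.75 and 10.62 with dexamethasone, 10.39 and 10.40 with GW3965, and 10.60 on both arrays with both drugs. The vehicle arrays were the highest and the GW3965 arrays the lowest. This signal fell by 0.53 with GW3965, or 1.45-fold (SE 0.05, adjusted p = 2.99e-07). It fell by 0.24 with dexamethasone (SE 0.05, adjusted p = 0.000445) and fell by 0.33 with both drugs (SE 0.05, adjusted p = 2.89e-05). The combination was 0.21 above GW3965 alone (SE 0.05, adjusted p = 0.00251), and it differed from dexamethasone alone by -0.08 (95% interval -0.18 to 0.02, adjusted p = 0.253), which did not pass the test.

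The other Ppp1r3b probe set, 1371161_at, gave 8.79 and 8.92 with vehicle, 8.77 and 8.86 with dexamethasone, 8.66 and 8.71 with GW3965, and 8.75 and 8.76 with both. The Dex arrays overlapped the vehicle arrays here, and the GW3965 arrays were again the lowest. The change with GW3965 was -0.17 (SE 0.06, adjusted p = 0.0483), and that with dexamethasone was -0.04 (95% interval -0.17 to 0.08, adjusted p = 0.593). The call for GW3965 rested on a narrow margin, since it was lost without any single array other than vehicle array a, with adjusted p from 0.0565 to 0.307, and after quantile normalization (-0.10, adjusted p = 0.254). Without GW3965 array a the change was -0.14, and without vehicle array b it was -0.11. The direction with GW3965 was the same for both probe sets, and the size was smaller for 1371161_at.

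Pygl, which releases glucose 1-phosphate from glycogen in liver, moved in the same direction as Gys2 with each drug alone. Its signals were 11.67 and 11.66 with vehicle, 11.90 and 11.93 with dexamethasone, 11.58 and 11.45 with GW3965, and 12.02 and 12.10 with both. The groups did not overlap, and the combination, not dexamethasone alone, held the highest arrays. Dexamethasone raised Pygl by 0.25 (SE 0.04, adjusted p = 0.00012) in the absence of GW3965 and by 0.54, or 1.46-fold, in its presence (SE 0.04, adjusted p = 1.32e-08). Against vehicle the combination was 0.39 higher (SE 0.04, adjusted p = 9.14e-07).

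The smaller differences of Pygl depended on single arrays. The change with GW3965 alone, -0.15 (SE 0.04, adjusted p = 0.0178), was -0.09 without GW3965 array b (adjusted p = 0.299) and -0.15 without vehicle array a (adjusted p = 0.0575), and it was -0.12 after quantile normalization (adjusted p = 0.0685). The increase of the combination over dexamethasone alone, 0.14 (SE 0.04, adjusted p = 0.0243), was 0.13 without Dex array a (adjusted p = 0.141), 0.15 without Dex array b (adjusted p = 0.0827) and 0.10 without Dex+GW3965 array b (adjusted p = 0.237). None of these reduced sets passed the test.

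Phka2, the regulatory α subunit of the liver phosphorylase kinase, was close to background. The signals were 5.66 and 5.44 with vehicle, 5.10 and 5.42 with dexamethasone, 5.41 and 5.73 with GW3965, and 5.47 and 5.76 with both. The SD within groups ran from 0.16 to 0.23, and the Dex mean of 5.26 was below the background level. No comparison passed the test, and no size is given for a change to a level below background.

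**Figure D2:**
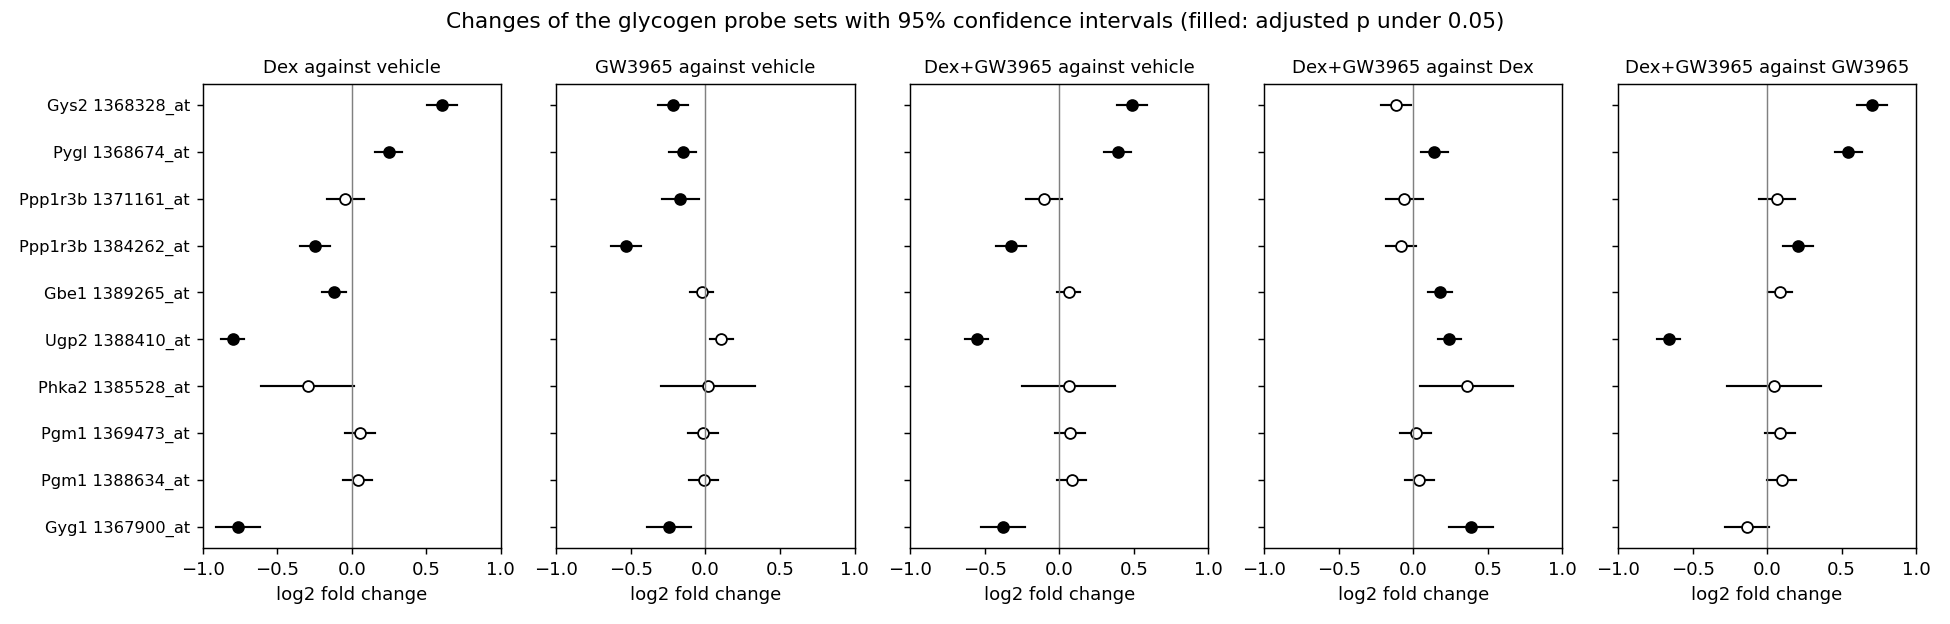
Log2 fold change (horizontal axis) of the 10 probe sets (vertical axis) in 5 comparisons, 1 panel each, with the 95% confidence interval of the limma fit as a line. Filled points passed the test. Dexamethasone moved Gys2 (0.61) and Ugp2 (-0.80) apart, and GW3965 alone gave no increase that passed the test.

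With GW3965 alone 5 of the 10 probe sets were called, all 5 lower and from 4 genes, namely Gys2, Pygl, Gyg1 and both probe sets of Ppp1r3b, where 20.5% of all tested probe sets were called, 5.93% higher and 14.5% lower. The median log2 change was -0.09 over the members and -0.03 over all probe sets. After quantile normalization 3 of the 10 were called, Gys2 (-0.14, adjusted p = 0.0432) and Ppp1r3b 1384262_at (-0.46, adjusted p = 4.4e-06) lower and Ugp2 (0.15, adjusted p = 0.00809) higher, and the filter on mean signal also called Ugp2 higher (adjusted p = 0.049). The split of all calls moved under quantile normalization from 963 higher and 2362 lower to 1209 higher and 1504 lower. Without GW3965 array b 2 of the 10 were called, and without vehicle array b or GW3965 array a 3 were called. Gys2 and Ppp1r3b 1384262_at were called in every one of these settings.

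With both drugs against vehicle, 5 of the 10 probe sets were called, Gys2 and Pygl higher and Ugp2, Gyg1 and Ppp1r3b 1384262_at lower, where 36.8% of all probe sets were called, 15.6% higher and 21.2% lower. The median log2 change was 0.06 over the members and -0.02 over all. This comparison shares its vehicle arrays with the 2 comparisons of the single drugs. The values for Gyg1 were -0.76 with dexamethasone, -0.24 with GW3965 and -0.38 with both, and those for Ppp1r3b 1384262_at were -0.24, -0.53 and -0.33, so that for both genes the combination lay between the single drugs.

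The question raised by the design was whether the LXR agonist alters the response to the glucocorticoid. Set against dexamethasone alone, the combination was higher for Pygl, Gbe1, Ugp2 and Gyg1 and lower for none of the 10 probe sets, so that 4 were called where 22.8% of all probe sets were, 13.4% higher and 9.38% lower. With quantile normalization the same 4 were called higher and Gys2 was called lower (-0.14, adjusted p = 0.0414). The split over all probe sets then moved from 2173 higher and 1525 lower to 1938 higher and 1819 lower. As deposited, the median log2 difference was 0.09 over the members and -0.00 over all probe sets. Ugp2 and Gyg1, which dexamethasone had lowered, were 0.24 and 0.39 higher with both drugs and still differed from vehicle by -0.55 and -0.38. Set against GW3965 alone, 4 probe sets were called, Gys2, Pygl and Ppp1r3b 1384262_at higher and Ugp2 lower, where 35.8% of all were, 19.0% higher and 16.8% lower, and the median log2 differences were 0.09 and -0.01. After quantile normalization the split over all probe sets moved from 3096 higher and 2729 lower to 2827 higher and 3098 lower.

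The interaction term tested whether the effect of one drug differed with and without the other. It was called for 4 of the 10 probe sets, those of Gyg1, Pygl and Gbe1 and 1384262_at of Ppp1r3b, each with a positive sign, where 22.8% of all probe sets were called, 15.8% positive and 6.93% negative. After quantile normalization the split over all probe sets moved from 2571 positive and 1127 negative calls to 1836 and 1593. The 10 estimates, 2 each from Pgm1 and Ppp1r3b, ran from 0.03 to 0.63. Their median was 0.17 against 0.03 over all probe sets. The estimate of Phka2 rests on a Dex mean below the background level. Under quantile normalization both Pgm1 estimates were negative, at -0.07 and -0.06. With the fit that had no intensity trend in the variance prior, 2 of the 10 passed, where 2684 of all 16253 probe sets did. Those lost were Pygl (adjusted p = 0.0674) and Gbe1 (adjusted p = 0.136).

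Gyg1 had the largest interaction, 0.63 (SE 0.10, adjusted p = 0.000152). Dexamethasone changed it by -0.76 without GW3965 and by -0.13 with it, the latter not passing the test. Ppp1r3b 1384262_at followed with 0.45 (SE 0.07, adjusted p = 0.000104), the change by dexamethasone being -0.24 without GW3965 and 0.21 with it. For the Ppp1r3b probe set 1371161_at the interaction was 0.11 (95% interval -0.06 to 0.28, adjusted p = 0.373) and did not pass the test.

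Pygl had an interaction of 0.29 (SE 0.06, adjusted p = 0.00186), and GW3965 changed it by -0.15 without dexamethasone and by 0.14 with it. In the fit without an intensity trend, these 2 changes also did not pass the test (adjusted p = 0.165 and 0.184). Gbe1 had 0.21 (SE 0.05, adjusted p = 0.00922), which was lost without GW3965 array b (0.17, adjusted p = 0.0705) and without Dex+GW3965 array b (0.18, adjusted p = 0.0506). The interactions of Gys2, 0.10 (95% interval -0.04 to 0.24, adjusted p = 0.318), and Ugp2, 0.14 (95% interval 0.03 to 0.25, adjusted p = 0.0653), did not pass the test. These 2 genes had the largest responses to dexamethasone in the presence of GW3965, 0.71 and -0.66.

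**Figure D3:**
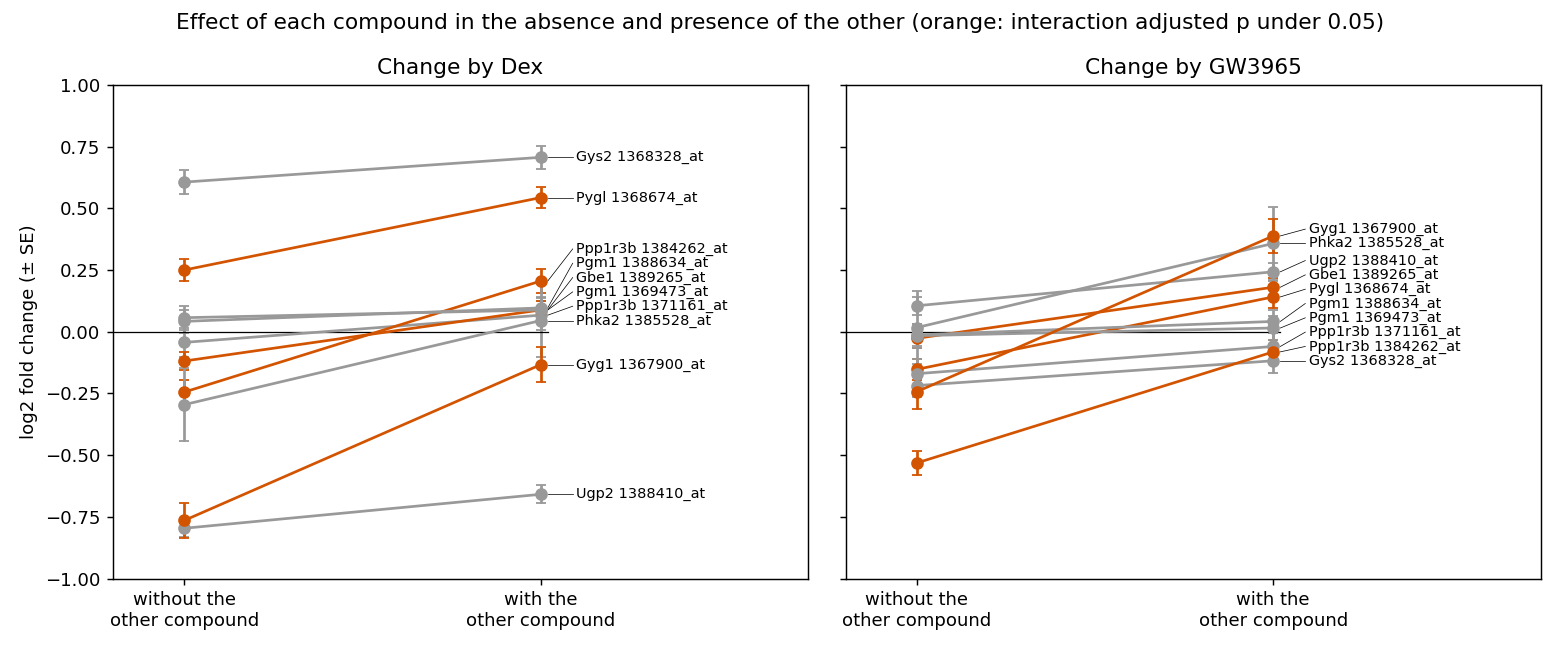
Log2 fold change (vertical axis, with SE as error bars) by dexamethasone (left) and by GW3965 (right) without and with the other drug, 1 line per probe set. Orange lines have an interaction that passed the test. The line of Gyg1 runs from -0.76 to -0.13 in the left panel and that of Pygl from -0.15 to 0.14 in the right panel.

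A list of 41 other genes of glycogen metabolism was read for context, each through its brightest tested probe set, and 28 could be tested. With dexamethasone 7 of the 28 were higher and 8 lower, and their median log2 change was -0.05. With GW3965 none was higher and 4 were lower (median -0.07), with both drugs against vehicle 7 were higher and 3 lower (median 0.02), and with both against dexamethasone 5 were higher and 3 lower (median -0.01). Without vehicle array a or GW3965 array a 2 were called for GW3965, and of the 8 called for both drugs against dexamethasone 3 were called without Dex array b or without Dex+GW3965 array a and 5 without Dex+GW3965 array b. After quantile normalization 11 were called for both drugs against dexamethasone, so that this count moved in both directions. The counts as deposited stand beside the shares of all probe sets given above for the same comparisons. Of the list genes not called through their brightest probe set, Csnk2a1, a subunit of casein kinase 2, had 2 dimmer probe sets that were called higher with GW3965, at 0.63 (adjusted p = 1.74e-05) and 0.53 (adjusted p = 0.00265), against 0.03 for the brightest (adjusted p = 0.768). The first of these was also higher with dexamethasone (0.63, adjusted p = 3.95e-06). The other 2 dimmer probe sets of Csnk2a1 were not called with GW3965 (-0.15, adjusted p = 0.0746, and -0.14, adjusted p = 0.243). The list was written with earlier results of these data known.

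Among genes that move glucose phosphates and glucose, Slc37a4, the transporter that carries glucose 6-phosphate into the endoplasmic reticulum for glucose release, had signals of 10.98 and 11.09 with vehicle, 12.23 and 12.21 with dexamethasone, 10.78 and 10.87 with GW3965, and 12.11 on both arrays with both drugs. The 4 arrays with dexamethasone lay above the others, with changes of 1.19 for dexamethasone (SE 0.04, adjusted p = 1.36e-13) and 1.08 for the combination (SE 0.04, adjusted p = 7.09e-13). With GW3965 alone Slc37a4 fell by 0.21 (SE 0.04, adjusted p = 0.00151), a call lost after quantile normalization (-0.12, adjusted p = 0.0845). Of the 6 tested genes of this group 3 rose with dexamethasone, Slc37a4, Slc2a2 (0.41, adjusted p = 1.35e-06) and Gckr (0.29, adjusted p = 4.19e-06), where 17.2% of all probe sets were higher. Pgm2l1 was called lower (-0.33, adjusted p = 0.0235), where 24.7% of all were, but not without vehicle array b (-0.30, adjusted p = 0.105) or Dex array a (-0.23, adjusted p = 0.193), nor with its dimmer probe set (-0.08, adjusted p = 0.624). Slc2a2, Gckr and Pgm2l1 were named after their values were seen.

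Stbd1, which binds glycogen and tethers it to membranes, fell in every treated group. Its signals were 9.50 and 9.60 with vehicle, 8.48 and 8.58 with dexamethasone, 8.76 on both arrays with GW3965, and 8.39 and 8.36 with both. No treated array reached the vehicle arrays. The changes against vehicle were -1.02 with dexamethasone (SE 0.06, adjusted p = 7.13e-11), -0.79 with GW3965 (SE 0.06, adjusted p = 1.38e-08) and -1.18 with both (SE 0.06, adjusted p = 1.37e-11). Its interaction was 0.63 (SE 0.08, adjusted p = 1.48e-05), the combination falling short of the sum of the single changes.

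The catalytic subunits of protein phosphatase 1, Ppp1ca, Ppp1cb and Ppp1cc, were the 3 genes called lower with dexamethasone among the 5 tested in the phosphatase group, with changes of -0.19, -0.31 and -0.20 (adjusted p = 0.00199, 0.0281 and 0.000617), where 24.7% of all probe sets were lower. Ppp1r2, an inhibitor of the phosphatase, was the 1 called higher (0.19, adjusted p = 0.0162), where 17.2% of all were. Its call was lost without vehicle array b (0.15, adjusted p = 0.104) or Dex array a (0.14, adjusted p = 0.147), and its dimmer probe set gave -0.02 (adjusted p = 0.838). Ppp1ca, Ppp1cb and Ppp1cc were higher with both drugs than with dexamethasone alone, by 0.16, 0.39 and 0.18 (adjusted p = 0.0124, 0.013 and 0.00368), where 13.4% of all probe sets were higher. Ppp1ca, Ppp1cc and Ppp1r2 were singled out after their values were seen. The signals of Ppp1cb were 9.98 and 9.44 with vehicle, 9.43 and 9.37 with dexamethasone, 9.56 and 9.50 with GW3965 and 9.71 and 9.87 with both, so that vehicle array a stood far above vehicle array b. Without vehicle array a, the change of Ppp1cb with dexamethasone was -0.04 (adjusted p = 0.681), and the call was also lost without Dex array a (-0.34, adjusted p = 0.0704) or b (-0.28, adjusted p = 0.137).

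The differences between both drugs and dexamethasone alone rested in part on single arrays for these subunits. For Ppp1cb the call was lost without Dex array b (0.36, adjusted p = 0.0935) and without Dex+GW3965 array b (0.31, adjusted p = 0.133). For Ppp1ca it was lost without Dex array a (0.17, adjusted p = 0.0524), Dex array b (0.15, adjusted p = 0.0902) or Dex+GW3965 array a (0.14, adjusted p = 0.0935). For Ppp1cc it held with any single array left out.

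Of the 7 kinases that phosphorylate the synthase, Prkaa2 and Gsk3a were higher and Prkaca and Prkacb lower with dexamethasone through their brightest probe sets, 4 of 7 where 41.9% of all probe sets were called. Prkaa2, the α2 catalytic subunit of AMP-activated protein kinase, rose by 0.55 (SE 0.04, adjusted p = 1.74e-08), and the difference of the combination from dexamethasone was -0.32 (SE 0.04, adjusted p = 4.62e-05). Prkacb is a catalytic subunit of protein kinase A. A dimmer probe set was not called with both drugs (-0.22, adjusted p = 0.132) or GW3965 (-0.06, adjusted p = 0.76). The brightest changed by -0.53 with dexamethasone (SE 0.06, adjusted p = 3.38e-07) and by -0.56 with both drugs (SE 0.06, adjusted p = 2.57e-07). With GW3965 it changed by -0.19 (SE 0.06, adjusted p = 0.0212). The last of these calls was lost when any vehicle or GW3965 array was left out, with changes from -0.21 to -0.17 and adjusted p from 0.0626 to 0.143, and a dimmer probe set of Prkacb gave -0.27 with dexamethasone (adjusted p = 0.0575). Prkaca, another such subunit, was 0.30 higher with both drugs than with dexamethasone (SE 0.07, adjusted p = 0.00342), or 0.20 without Dex+GW3965 array a (adjusted p = 0.074). Gsk3a, a glycogen synthase kinase, fell by 0.22 in that comparison (SE 0.08, adjusted p = 0.0451), and this call was lost without any single Dex, GW3965 or Dex+GW3965 array (changes from -0.24 to -0.20, adjusted p from 0.0625 to 0.194). With dexamethasone Prkaca changed by -0.41 (adjusted p = 7.85e-05) and Gsk3a by 0.25 (adjusted p = 0.0119), the latter call being lost without vehicle array a (0.19, adjusted p = 0.108) or Dex array a (0.23, adjusted p = 0.0762).

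Of the hormone receptors, Gcgr, the glucagon receptor, rose by 0.57 with dexamethasone (SE 0.04, adjusted p = 7.18e-09) and by 0.45 with both drugs (SE 0.04, adjusted p = 1.93e-07). For Insr, the insulin receptor, a dimmer probe set gave 0.24 with both drugs against vehicle (adjusted p = 0.0984) and was not called. The brightest was 0.40 above vehicle with both drugs (SE 0.09, adjusted p = 0.00215) and 0.27 above dexamethasone alone (SE 0.09, adjusted p = 0.0396). The latter fell to 0.16 without Dex array b (adjusted p = 0.355) and was also lost without GW3965 array a or b and without Dex+GW3965 array a or b (0.22 to 0.33, adjusted p from 0.0561 to 0.238), and a dimmer probe set of Insr gave -0.01 (adjusted p = 0.958). Adra1b, the α1B adrenergic receptor, changed by -0.19 with GW3965 (SE 0.06, adjusted p = 0.0251), and the call was lost at -0.09 without GW3965 array a (adjusted p = 0.376), -0.18 without vehicle array a (adjusted p = 0.0981) and -0.21 without vehicle array b (adjusted p = 0.0512). Without GW3965 array b the change was -0.30 (adjusted p = 0.00314) and passed the test.

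**Figure D4:**
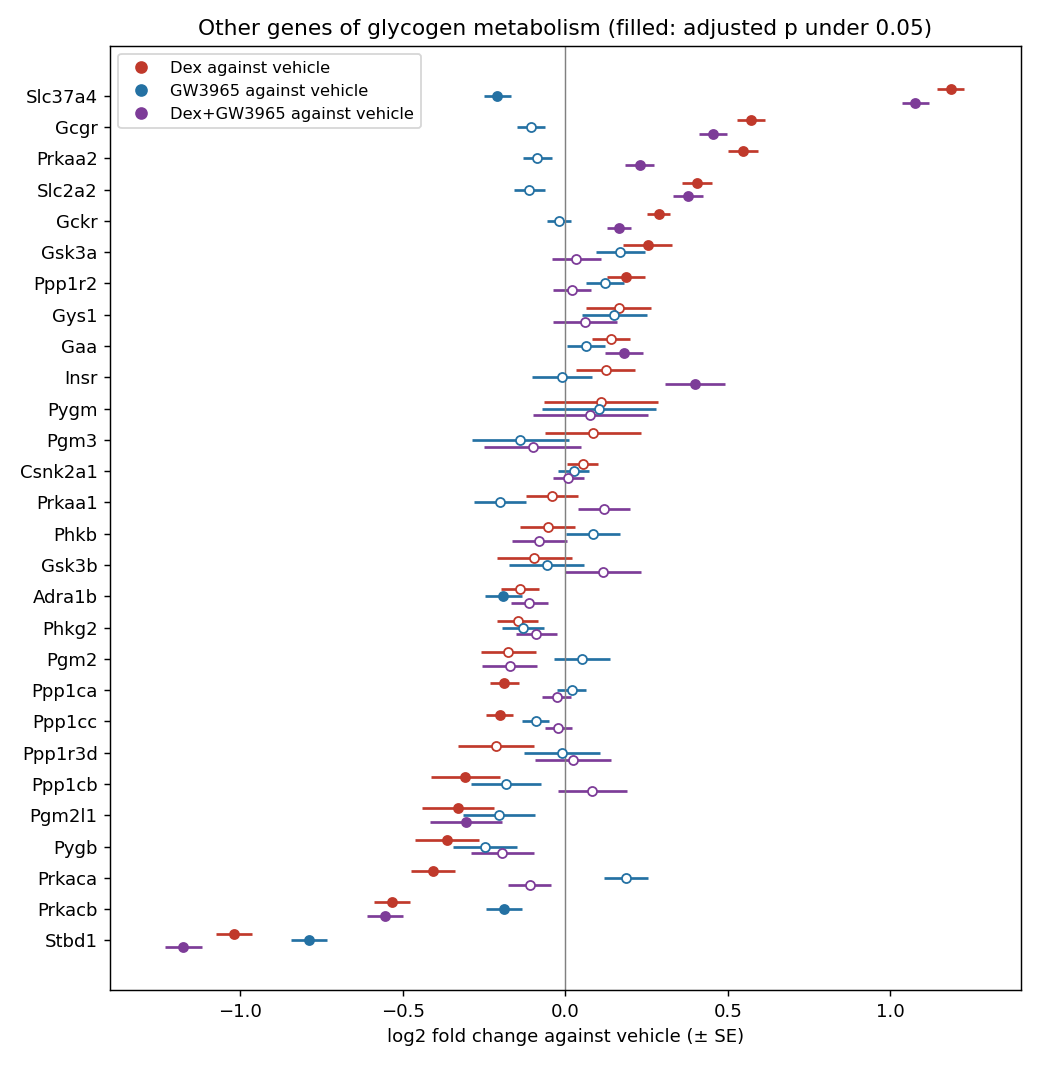
Log2 fold change against vehicle (horizontal axis, with SE as error bars) of the 28 tested genes of the wider glycogen list (vertical axis, ordered by the change with dexamethasone) for dexamethasone, GW3965 and both drugs. Filled points passed the test. Slc37a4 stands at the top (1.19 with dexamethasone) and Stbd1 at the bottom (-1.02).

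The genes whose signals ran most nearly parallel to a member over the 8 arrays were found by Pearson's r, which describes these arrays and carries no test. Gys2 was closest to Cyp4a8 (r = 0.9996), Acaca (0.9987), the acetyl-CoA carboxylase of fatty acid synthesis, and Nnmt (0.9968). Pygl was closest to Sectm1b (0.9906), Zfyve9 (0.9877) and Glmp (0.9874), and Ppp1r3b 1384262_at to Cyp39a1 (0.983), Ociad2 (0.9812) and Vps52 (0.9777). The points share 4 group means, and r was above 0.95 with 436 genes for Gys2, 139 for Pygl and 11 for Ppp1r3b.

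Markers of other cell types were summed on the linear scale, so that the brightest marker weighs most. The summed signals of 6 stellate cell markers were 12.15 on both vehicle arrays, 11.41 to 11.43 with dexamethasone, 11.80 to 11.84 with GW3965 and 11.34 to 11.36 with both, and those of 4 sinusoidal endothelial markers ran from 10.80 to 11.38. Of the 6 stellate cell markers 4 were called lower and 1 higher with dexamethasone, where 24.7% and 17.2% of all tested probe sets were. With GW3965 5 were lower (14.5% of all), and with both drugs against dexamethasone 2 were higher and 1 lower (13.4% and 9.38%). Of the 4 Kupffer cell markers 1 was higher and 1 lower with dexamethasone, and of the 4 endothelial markers 2 were lower. Kupffer cell markers (4 on the array) spanned 10.71 to 11.14, neutrophil markers (3) 6.23 to 7.86, T and NK cell markers (4) 6.72 to 6.94, B cell markers (2) 6.28 to 7.37, erythrocyte markers (3) 13.09 to 14.19, cholangiocyte markers (3) 8.01 to 8.85 and skeletal muscle markers (5) 11.91 to 12.46. Ly6g6c, Cd3e, Cd3d, Nkg7 and Krt7 were not above background, among them 3 of the 4 T and NK cell markers. The part of these cell types in the changes of Gyg1 and the other members was not tested.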

How the data were processed

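Liver RNA of 4 treatment groups was measured on 8 arrays, 2 per group. The authors deposited 1 log2 signal for each probe set and array. The study's methods describe signals from perfect-match probes alone, after subtracting a MAS background and assigning probes anew to UniGene clusters. That assignment decides which probes count for a gene. The scaling between arrays was not given in the sources used here, and array medians lay between 5.48 and 5.52. The submitters' processing notes name MAS5. Whether the steps in the study's methods were applied to the deposited signals was not settled here. From 31042 probe sets without Affymetrix controls, 16253 above their own array's median on at least 2 arrays were tested. A group means model was fitted with limma 3.58.1 in R 4.3.3 (eBayes with an intensity trend, 4 residual degrees of freedom, prior degrees of freedom 12.7), with Benjamini-Hochberg adjustment over all tested probe sets and calls below 0.05. The fit was tested on simulated data. Of all probe sets 20826 carried 1 gene symbol, 436 several and 9780 none in the platform annotation, and only the first were named.

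All member probe sets are reported. The wider glycogen list entered through the brightest tested probe set per gene, and the marker lists through the brightest probe set per gene, tested or not. Up to 5 called list genes with the largest change per comparison against vehicle or dexamethasone are named, as are the 3 genes nearest in pattern. Members and lists were chosen with earlier results of these data known. Alternatives were other filters, quantile normalization, no trend, a replicate block, fits on the compared groups, leaving out each array, and the methods' t-test on log ratios.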

Additional observations from a re-analysis of the deposited data

Results flagged for a closer look

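For 4 probe sets the effect of GW3965 on the log2 signal differed between rats with and without dexamethasone, by limma's interaction term over all tested probe sets. The difference was 0.631 for Gyg1 (adjusted p = 0.000152), where GW3965 gave -0.24 without dexamethasone and 0.39 with it. It was 0.4499 for Ppp1r3b 1384262_at (adjusted p = 0.000104), where GW3965 gave -0.53 and -0.08. Pygl had 0.2934 (adjusted p = 0.00186), with -0.15 and 0.14, and Gbe1 had 0.207 (adjusted p = 0.00922), with -0.03 and 0.18. Without the intensity trend the interactions of Pygl (adjusted p = 0.0674) and Gbe1 (adjusted p = 0.136) did not pass the test. Each group held 2 arrays.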

How the results depend on the processing

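The replicate block for the letters a and b changed none of the 60 member results (6, 5, 5, 4, 4 and 4 calls, as without it). The letters are not stated to pair arrays, and deviations of a-arrays correlated between groups at -0.232 to 0.083. Among the wider list it ended the Gsk3a call for both drugs against dexamethasone (-0.22, adjusted p = 0.0615). The cause of the shifts below was not tested. GW3965 against vehicle, with 5 calls, gave 3 after quantile normalization, 2 without a trend, 2 by the methods' t-test and from 2 to 4 with 1 array left out. Without a trend, GW3965 gave 2222 calls among all probe sets in place of 3325. Both drugs against dexamethasone gave 2711 and the interaction 2684, each in place of 3698. Among the members, both drugs against dexamethasone then gave 2 calls in place of 4 and the interaction 2 in place of 4. In the wider list GW3965 gave 1 in place of 4, both drugs against dexamethasone 2 in place of 8 and the interaction 3 in place of 8. That interaction count was 5 without Dex array a, GW3965 array b or Dex+GW3965 array b. After quantile normalization both drugs against vehicle gave 6 member calls in place of 5. After Benjamini-Hochberg adjustment the methods' t-test, with 1 degree of freedom, called 0 member probe sets in all 5 comparisons, against 4, 2, 5, 3 and 5 unadjusted, and 31, 19, 28, 22 and 25 of all probe sets. Unadjusted it called 4335, 3789 and 3741 of all probe sets for dexamethasone and for both drugs against vehicle and against GW3965, where limma called 6806, 5980 and 5825. Among all probe sets GW3965 gave 3325 calls, 2127 without GW3965 array a and 1804 without GW3965 array b, and both drugs against dexamethasone gave 3698, 2401 without Dex array b and 2376 without Dex+GW3965 array b.

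Signs turned only for differences that passed no test. After quantile normalization Gbe1 (0.0099), Phka2 (-0.0134), Pgm1 1369473_at (0.0685) and Pgm1 1388634_at (0.0605) turned for GW3965 against vehicle, Pgm1 1369473_at for both drugs against dexamethasone (-0.0054), and the Pgm1 interactions (-0.0739 and -0.0559). With 1 array left out, Ppp1r3b 1371161_at ranged from -0.1065 to 0.0204 for dexamethasone and Gbe1 from -0.0627 to 0.0097 for GW3965. Phka2 ranged from -0.1456 to 0.1798 for GW3965, -0.0838 to 0.209 for both drugs against vehicle and -0.1172 to 0.2082 against GW3965. Pgm1 1369473_at ranged from -0.0598 to 0.0279 for GW3965, -0.0088 to 0.0394 for both drugs against dexamethasone and -0.0126 to 0.0751 for the interaction, and Pgm1 1388634_at from -0.0343 to 0.0089, -0.0138 to 0.0975 and -0.001 to 0.1103. Alternatives for the wider list were chosen after seeing the data. Signal close to background limits Phka2.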
